A study of Mus musculus with 8 samples.

Results

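Olig1, Pdgfra, Cspg4 and Bcas1 are genes of the oligodendrocyte lineage, the cells that myelinate axons in the brain and spinal cord. They were taken here as every probe that the platform annotation names with one of these symbols. The annotation used covers 11692 of the 25697 probes on the array, all among the authors' deposited values. It gave 4 probes, 1 for each gene, and 4 of the 8107 genes that entered the tests. Any further probe of these genes among the unnamed ones was not seen. Each of the 4 probes passed the filter on dim probes, which asks that both arrays of some group detect the probe at a p under 0.01. Named probes had already met the authors' filter, a detection p under 0.05 on 4 or more arrays. RNA from 4 kinds of cultured mouse cells was measured on Illumina BeadChips, with 2 arrays per group and 8 in all. The study concerns parental imprinting in neural stem cells (NSCs), and its NSC comparisons are used here to ask how the oligodendrocyte genes stand in each line.

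All samples are labelled female. The fNSC arrays hold RNA of female NSCs of genotype OG2ROSA, whose sample name carries the number P27. The pNSC arrays hold parthenogenetic NSCs of genotype OG2+/-, number P18, which come from an egg activated without sperm and so carry maternal genomes only. The miPS-NSC arrays have the same genotype OG2+/- and the number P8, and their cell type name is read here, with the title of the series, as NSCs made from induced pluripotent stem cells. Their sample names and signal columns read pips-NSC instead, which the labels do not explain, so the cells that this line came from are not settled. The fourth group is mouse embryonic fibroblasts (MEF), labelled OG2+/- while the signal table heads these columns OG2ROSA1. The labels do not spell out OG2 or ROSA. One growth medium is recorded for every sample, containing EGF and bFGF at 10 ng/ml each, growth factors that keep NSCs dividing. The P number therefore differs between all NSC groups, and genotype between fNSC and both others, while pNSC and miPS-NSC share it. The parts of group, genotype and P number cannot be told apart where they differ together. No label names more than 1 line per group, and nothing says that its arrays come from separate cultures, so p-values measure only the spread between those arrays, which may be technical.

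Oligodendrocytes arise from dividing precursor cells, which leave the cycle, pass through a short newly formed stage and then wrap axons in myelin. Olig1 encodes a basic helix-loop-helix (bHLH) transcription factor that lies beside its relative Olig2 and acts in oligodendrocyte maturation. Pdgfra encodes the receptor through which platelet-derived growth factor A keeps precursors dividing, and it is also a well known receptor of fibroblasts and other mesenchymal cells. Cspg4 encodes the proteoglycan NG2, found on oligodendrocyte precursors and on pericytes. Bcas1 encodes a myelin-associated protein that marks newly formed oligodendrocytes. Cultures of NSCs grown in these growth factors often express Olig genes without having become oligodendrocytes.

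In the RefSeq annotation of GRCm38.p6, Olig1 occupies chr16:91269769-91271939, with 41091 bases between it and the end of Olig2. Pdgfra lies at chr5:75151322-75198206, Cspg4 at chr9:56865104-56899870 and Bcas1 at chr2:170343973-170427911. Promoter windows of 300 bases, from 250 before a transcript start to 50 after it, were available from RefSeq (GRCm38.p6) for 2 of the 4 genes, Pdgfra and Cspg4. They are shown because both genes differ between NSC groups in the results that follow, and Bcas1, which differs too, has no window in the table. The Pdgfra window is chr5:75152001-75152300 on the plus strand, around the transcript start at 75152251, which is inside the annotated gene. The Cspg4 window is chr9:56864854-56865153 on the plus strand. Capitals mark the E-box, CANNTG, the motif that bHLH factors bind, and the GC box, GGGCGG or its reverse complement, both searched on both strands.
Pdgfra: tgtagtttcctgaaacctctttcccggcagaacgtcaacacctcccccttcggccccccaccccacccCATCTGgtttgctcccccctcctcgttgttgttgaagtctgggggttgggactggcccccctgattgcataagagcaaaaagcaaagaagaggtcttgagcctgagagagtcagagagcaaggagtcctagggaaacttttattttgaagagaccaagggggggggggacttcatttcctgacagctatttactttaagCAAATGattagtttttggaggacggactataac
Cspg4: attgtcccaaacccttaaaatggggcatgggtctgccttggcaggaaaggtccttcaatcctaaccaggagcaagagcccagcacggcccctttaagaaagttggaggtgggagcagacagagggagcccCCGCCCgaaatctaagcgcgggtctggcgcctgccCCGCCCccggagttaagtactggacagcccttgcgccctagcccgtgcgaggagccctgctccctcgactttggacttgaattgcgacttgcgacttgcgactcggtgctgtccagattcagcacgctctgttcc
The Pdgfra window holds 2 E-boxes, starting 182 bases before the transcript start and at base 18 of the transcript, and 0 GC boxes. The Cspg4 window holds 0 E-boxes and 2 GC boxes, starting 120 and 85 bases before the start. An E-box occurs in 72.3% of all 32851 windows of this length and a GC box in 35.7%, so both are common. The marked matches do not overlap each other. The Cspg4 window is 60.0% G or C with 17 CpG dinucleotides, against 51.0% and 5 for Pdgfra. These matches describe the letters of the windows and nothing about binding.

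The NSC markers of the 3 lines were checked first, with 8 of 11 named. Sox2, Fabp7 and Hes5, which mark neural stem cells, were detected on all arrays of fNSC, pNSC and miPS-NSC and on neither MEF array. Nes, Vim, Slc1a3 and Notch1 were detected in all 4 groups, and Prom1 was detected on both arrays of no group. In miPS-NSC 4 of the 7 tested markers were called lower than in fNSC, Fabp7, Hes5, Nes and Notch1, and 4 lower than in pNSC, with Vim in place of Notch1. Of all genes 5.61% and 6.99% were called lower in these comparisons. Fabp7, a fatty acid binding protein of radial glia, had a log2 level of 10.09 ± 0.39 in fNSC, 9.73 ± 0.24 in pNSC and 7.26 ± 0.73 in miPS-NSC (SD, n = 2). The part of this in the miPS-NSC results was not tested. Of 13 fibroblast markers 7 are named, and all 7 were detected on both MEF arrays. Names cover only probes with a detection p under 0.05 on 4 or more arrays, so a marker on in MEF alone has none. Between 10553 and 10902 probes were detected per array, and each signal is the mean over a median of 34 to 40 beads.

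Olig1 was among the bright signals of all 3 NSC lines and was not detected in fibroblasts. Its raw intensity was 32171 and 31392 on the fNSC arrays, 34284 and 27243 on the pNSC arrays, 27059 and 22299 on the miPS-NSC arrays and 163.5 and 134.1 on the MEF arrays. The NSC arrays thus lay far above the MEF arrays, while fNSC and pNSC overlapped before normalization. The standard error among beads was 5.7% to 8.4% of the signal on NSC arrays, and the brightest probe of any array reached 70108. After background correction and quantile normalization the log2 level was 15.29 ± 0.09 in pNSC, 15.15 ± 0.03 in fNSC and 14.76 ± 0.11 in miPS-NSC (SD, n = 2 each). The order was pNSC, fNSC, miPS-NSC, MEF, and its first neighbours, pNSC and fNSC, did not differ beyond their spread.

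Bcas1 followed the same split between NSCs and fibroblasts. Raw intensities were 13492 and 14913 in fNSC, 21129 and 19672 in pNSC, 11247 and 9656 in miPS-NSC and 173.4 and 159.7 in MEF. No NSC group overlapped another, with pNSC highest and miPS-NSC lowest. On the log2 scale the levels were 14.60 ± 0.08 in pNSC, 13.995 ± 0.135 in fNSC and 13.51 ± 0.004 in miPS-NSC (SD, n = 2 each), and MEF was not detected. Unlike Olig1, each neighbouring pair in this order differed in the limma fit, though not every pair by 2-fold.

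Pdgfra had a different pattern, on in pNSC and in fibroblasts and at background in fNSC. Raw intensities were 201.4 and 196.6 in fNSC, 1848 and 1841 in pNSC, 224.1 and 237.2 in miPS-NSC and 5540 and 5562.5 in MEF. Neither fNSC array was detected, and of the miPS-NSC arrays only the second was. The pNSC arrays stood clear of both other NSC groups and below the MEF arrays. Normalized log2 levels were 11.94 ± 0.07 in MEF and 10.91 ± 0.15 in pNSC (SD, n = 2 each), above the range of 6.13 to 6.29 in which the dimmest detected probes of the arrays lay. The lower neighbours, miPS-NSC at 5.93 ± 0.69 and fNSC at 5.46 ± 0.20, did not differ beyond their spread.

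Cspg4 was dim throughout and was highest in fibroblasts. Raw intensities were 251.8 and 247.0 in fNSC, 277.6 and 263.5 in pNSC, 196.1 and 181.6 in miPS-NSC and 429.4 and 382.9 in MEF. Both miPS-NSC arrays were below detection and below every other array. The log2 levels were 7.53 ± 0.07 in MEF, 6.96 ± 0.08 in pNSC and 6.72 ± 0.09 in fNSC (SD, n = 2 each). In that order pNSC and fNSC were neighbours without overlap of their arrays, but with a limma adjusted p of 0.0737. The miPS-NSC arrays came last.

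**Figure D1:**
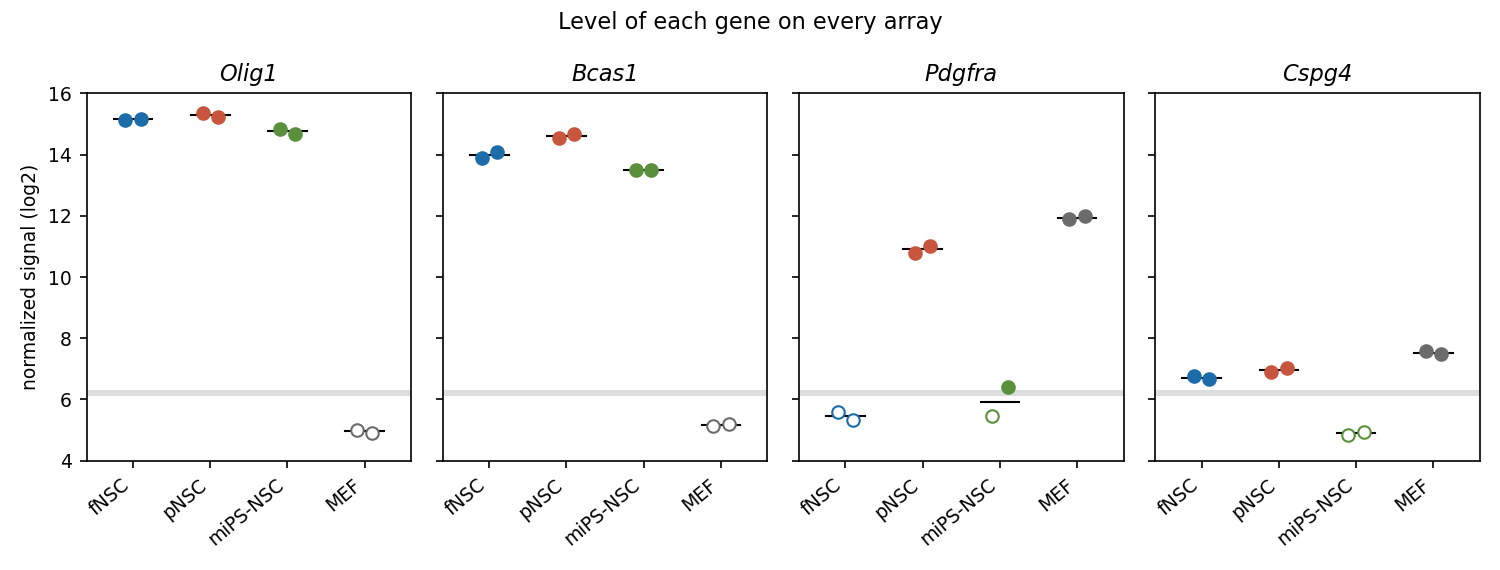
Normalized signal (log2, vertical axis) of Olig1, Bcas1, Pdgfra and Cspg4 on each of the 8 arrays, by group; filled points are detected arrays, open points are not, short lines are group means and the grey band spans the lowest detected signals of the arrays (6.13 to 6.29). Olig1 and Bcas1 are high in the 3 NSC groups and undetected in MEF, Pdgfra is high in pNSC and MEF, and Cspg4 is undetected in miPS-NSC.

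The comparison of parthenogenetic with female NSCs asks what a purely maternal genome goes with, and among these genes Pdgfra was called. Pdgfra was higher in pNSC by 5.45 ± 0.29 on the log2 scale (SE), at least 25.9-fold, since fNSC was below detection (limma adjusted p = 1.31e-05). Higher Bcas1 in pNSC, 0.61 ± 0.10 on the log2 scale or 1.52-fold, had an adjusted p of 0.00213 and stayed under the 2-fold limit of a call. Olig1 differed by 0.14 (95% interval -0.09 to 0.36, adjusted p = 0.273) and Cspg4 by 0.24 (95% interval 0.02 to 0.46, adjusted p = 0.0737). One of the 4 genes was therefore called, against 6.57% of all 8107 genes called higher and 4.87% called lower. In bulk RNA, a smaller share of cells with a transcript and less of it per cell cannot be told apart. Normalized without background correction, the Pdgfra difference was 3.37 on the log2 scale, still called but smaller than the bound.

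Fibroblast genes are set beside this result because Pdgfra is also a fibroblast gene. The summed level of the 7 named fibroblast markers was 1117 to 1137 in fNSC, 3202 to 3347 in pNSC, 4618 to 4744 in miPS-NSC and 59480 to 61240 in MEF. Names need detection on 4 or more arrays, so markers on in MEF alone are not in this sum. Among the NSC lines this sum was highest in miPS-NSC, and the single markers differed in their order. Col6a1, a collagen VI chain, had log2 levels of 8.19 ± 0.09 in fNSC, 11.44 ± 0.03 in pNSC and 11.53 ± 0.04 in miPS-NSC (SD, n = 2) and gave most of the pNSC sum. Prrx1 was detected in all 3 NSC lines, Twist1 in fNSC and miPS-NSC, and S100a4 on 1 pNSC array. Col1a2, the defining fibrillar collagen of the list, was not detected in any NSC group, Thy1 was detected in miPS-NSC only among them, and Twist2 in pNSC only. Of 11 pericyte markers 5 are named, and their sum was 1295 to 1335 in fNSC, 1870 to 1932 in pNSC, 2239 to 2288 in miPS-NSC and 64220 to 67770 in MEF. Notch3 rose over these NSC lines, at log2 levels of 9.10, 10.28 and 10.65. Acta2 fell by its brightest probe, at 8.61, 8.06 and 6.69, and at 15.95 gave most of the MEF sum. Astrocyte markers, 7 of 9 named, summed to 14510 to 15480 in fNSC, 39110 to 39970 in pNSC and 24370 to 25590 in miPS-NSC, a sum in which Gja1 and Aldoc weigh most. Of that list, Clu and Slc1a2 were called higher and Apoe lower in miPS-NSC than in pNSC. Aldh1l1 was not called by its brightest probe (-0.95 on the log2 scale) but was called lower by its others (-1.57 and -1.59). The median log2 difference of the 6 tested astrocyte genes was -0.80 in that comparison, and against fNSC 1.69 in pNSC and 2.35 in miPS-NSC. Schwann cell and neural crest markers, 4 of 9 named, summed to 5641 to 5877 in fNSC, 4953 to 5433 in pNSC and 13690 to 13860 in miPS-NSC. Ets1, at log2 levels of 11.95, 10.96 and 13.06, weighed most in fNSC and miPS-NSC. Neuron markers, 6 of 9 named, summed to 6240 to 7031, 5938 to 6137 and 8559 to 9942. Map2 gave most of that sum, and its brightest probe was not called among the NSC lines. Of the microglia and of the endothelial markers 1 gene each is named, and neither was detected on both arrays of a group. The part of these cell types in the Pdgfra result was not tested.

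Against pNSC, 3 of the 4 genes were called lower in the miPS-NSC line, and the fourth, Olig1, was lower by under 2-fold. Pdgfra was lower by 4.97 ± 0.29 on the log2 scale (SE), at least 24.5-fold, with miPS-NSC detected on 1 of 2 arrays (limma adjusted p = 1.65e-05). In the authors' values the Pdgfra difference was -3.26 on the log2 scale, still called but smaller than the bound. Cspg4 was lower by 2.06 ± 0.09, which the detection limit turns into at least 1.69-fold (adjusted p = 5.35e-06). Bcas1 was lower by 1.09 ± 0.10, or 2.13-fold (adjusted p = 0.000109). Olig1 was lower by 0.53 ± 0.09, or 1.44-fold (adjusted p = 0.00297), and was not called. Over all genes, 7.64% were called higher and 6.99% lower in this comparison. The Cspg4 call was lost without background correction, at -0.74 on the log2 scale, and in the authors' processed values, at -0.71, both under 2-fold.

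Against fNSC, the miPS-NSC line differed in Cspg4 and kept Pdgfra near background. Cspg4 was lower by 1.82 ± 0.09 on the log2 scale (SE), at least 1.44-fold (limma adjusted p = 7.92e-06), and in the authors' processed values by 0.60, which is no call. Bcas1 was lower by 0.49 ± 0.10, 1.40-fold (adjusted p = 0.005), and Olig1 by 0.39 ± 0.09, 1.31-fold (adjusted p = 0.012), both under 2-fold. For Pdgfra the difference was 0.47 ± 0.29 (95% interval -0.21 to 1.15, adjusted p = 0.209), and without the second miPS-NSC array it was -0.01. One gene was called, where 8.5% of all genes were called higher and 5.61% lower. The 3 NSC comparisons share arrays, so their values are set side by side and were not correlated.

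**Figure D2:**
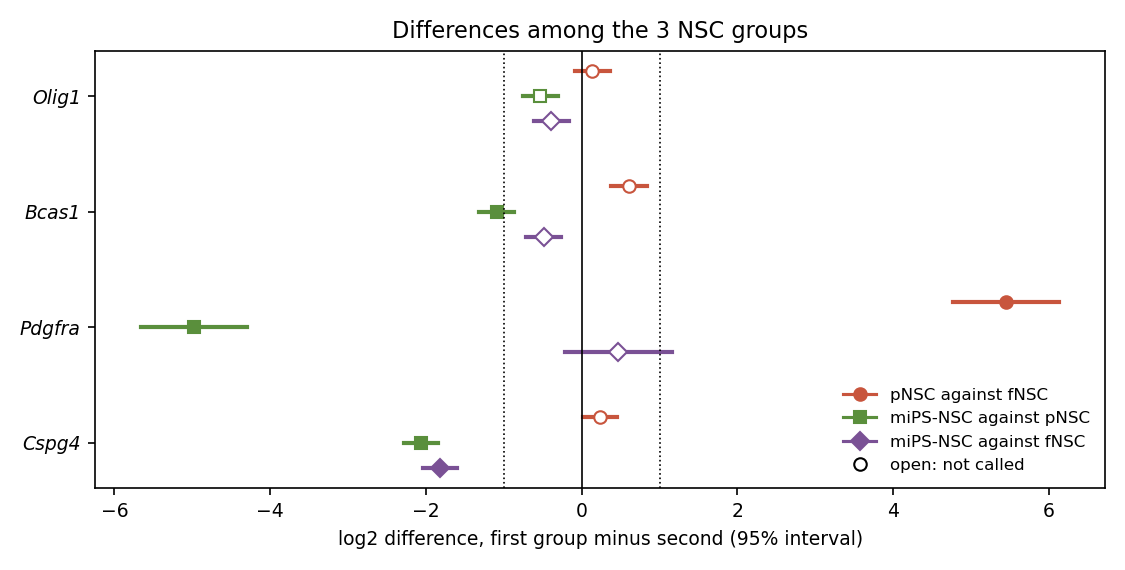
Log2 difference of Olig1, Bcas1, Pdgfra and Cspg4 (horizontal axis, first group minus second) in the 3 comparisons of NSC groups; bars are 95% intervals of the limma fit, filled symbols are called genes and dotted lines mark 2-fold. Pdgfra stands out at 5.45 and -4.97 in the comparisons that involve pNSC, and every Olig1 difference lies within 2-fold.

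Fibroblasts served as the non-neural comparison. Olig1 was higher by 10.19 ± 0.09 on the log2 scale in fNSC, 10.33 ± 0.09 in pNSC and 9.80 ± 0.09 in miPS-NSC, at least 480, 528.5 and 366-fold. Bcas1 was higher by 8.84, 9.45 and 8.36 on that scale, at least 215, 328 and 154-fold. These sizes depend on the scaling: in the authors' values the differences were 7.61, 7.76 and 7.22 for Olig1 and 6.37, 6.97 and 5.88 for Bcas1, smaller than the bounds. Pdgfra went the other way and was lower than in MEF by at least 52.95-fold in fNSC and 50.05-fold in miPS-NSC, but by 2.04-fold in pNSC (log2 difference -1.03 ± 0.29, limma adjusted p = 0.0126). In the authors' values Pdgfra differed from MEF by -4.42 in fNSC and -4.27 in miPS-NSC on the log2 scale, again smaller than the bounds. The pNSC call sits at the limit, and without pNSC replicate 1 or MEF replicate 2 its adjusted p was 0.0625 or 0.0627.

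Cspg4 was lower than in MEF by 0.82 on the log2 scale in fNSC and by 0.58 in pNSC, 1.76 and 1.49-fold, neither called. In miPS-NSC it was lower by 2.64, at least 2.525-fold, and called (limma adjusted p from the fit over all genes). The counts of called genes were 3 of 4 for fNSC, 3 for pNSC and 4 for miPS-NSC. Backgrounds were large, with 25.9% of all genes called higher and 17.2% lower in fNSC, 25.8% and 17.6% in pNSC, and 24.8% and 17.2% in miPS-NSC. The excess of higher calls was smaller in the authors' values, where 1084 genes were higher and 1054 lower in fNSC. Tested genes needed a name, and so detection on 4 or more arrays. A gene on in MEF alone could therefore not enter, while a gene on in the NSC lines alone could. The part of this filter in the excess was not tested. The median of all genes was itself 0.25 higher in fNSC than in MEF on the log2 scale and 0.07 in the authors' values, a shift that the sizes above include.

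Olig2, the neighbour and close relative of Olig1 that starts the lineage, is in both the precursor and the bHLH list. Raw intensities of its probe were 421.8 and 354.6 in fNSC, 407.6 and 334.8 in pNSC, 296.5 and 271.8 in miPS-NSC and 141.3 and 132.4 in MEF. The miPS-NSC arrays were below all other NSC arrays. Olig2 was lower in miPS-NSC than in fNSC by 1.14 ± 0.16 on the log2 scale, 2.21-fold (limma adjusted p = 0.000978). Without background correction that difference was -0.61, under 2-fold.

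Of 18 oligodendrocyte precursor genes, 9 are named and all 9 were tested, 3 of them being Olig1, Pdgfra and Cspg4. In pNSC against fNSC 2 were called higher and 0 lower, with a median log2 difference of 0.26 against -0.01 over all genes. The second, beside Pdgfra, was Cspg5, a brain proteoglycan of the neuregulin type, higher by 1.39 ± 0.11 or 2.62-fold. In miPS-NSC against pNSC 1 was higher and 3 lower (median -0.53, all genes -0.03), and Cspg5 was again the third gene besides Pdgfra and Cspg4, lower 2.14-fold. The gene that rose was Matn4, a matrix protein detected in miPS-NSC and MEF only, higher by at least 1.54-fold. Among the NSC lines 6.57% to 8.5% of all genes were called higher and 4.87% to 6.99% lower.

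In miPS-NSC against fNSC the precursor list had 1 gene higher and 3 lower (median -0.22 on the log2 scale, or 0.04 over the 6 genes other than Olig1, Pdgfra and Cspg4, and -0.04 over all genes). Sox8, a SOX transcription factor of glia, was lower 2.25-fold, beside Cspg4 and Olig2, and Matn4 was higher at least 1.55-fold. In the authors' values both Matn4 differences were under 2-fold, at 0.48 against pNSC and 0.60 against fNSC on the log2 scale, as were those of Cacng4 against MEF. Against MEF 6 of the 9 were called higher in each NSC line, namely Olig1, Olig2, Nkx2-2, Cspg5, Sox8 and Cacng4. Matn4 and Pdgfra were called lower in each line, and Cspg4 also in miPS-NSC. Over all genes 24.8% to 25.9% were called higher and 17.2% to 17.6% lower in these comparisons. In the authors' values Matn4 in miPS-NSC against MEF was under 2-fold, at -0.73 on the log2 scale. Nkx2-2, a homeodomain factor of the lineage, was higher by at least 31.5-fold in fNSC, 37.8-fold in pNSC and 27.1-fold in miPS-NSC. Among the NSC groups its brightest probe was not called, while its other probe was called higher in miPS-NSC than in pNSC by 1.28 on the log2 scale.

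Of 14 genes of newly formed oligodendrocytes, the list that holds Bcas1, 9 are named and tested. Pairwise, 0 were called in pNSC against fNSC (Bcas1 had an adjusted p of 0.00213, under 2-fold), with a median log2 difference of 0.17, or -0.11 over the 8 genes other than Bcas1. In miPS-NSC against pNSC 1 was lower, Bcas1 itself (median 0.02). In miPS-NSC against fNSC 1 was higher, the growth factor Bmp4 at 1.35-fold or more, and 1 lower, the Wnt effector Tcf7l2 at 2.52-fold (median -0.16). In the authors' values the Bmp4 difference was 0.46 on the log2 scale and not called. Against MEF 3 were higher in each NSC line, Bcas1, the kinase Fyn and the myelin enzyme Cnp, and 2 lower, Bmp4 and the small GTPase Rras2. The shares over all genes were 24.8% to 25.9% higher and 17.2% to 17.6% lower. Among the NSC lines they were 6.57% to 8.5% and 4.87% to 6.99%. By another probe Cnp in fNSC was at 0.90 on the log2 scale, not called. Another Tcf7l2 probe was called lower in miPS-NSC than in MEF, at -1.12. Cnp in fNSC (0.80 on the log2 scale) and Bmp4 in pNSC (-0.89) and miPS-NSC (-0.61) were under 2-fold in the authors' values, and without background correction Cnp in fNSC and Bmp4 in each line were. Medians against MEF were near 0, at -0.06, -0.03 and -0.22 for fNSC, pNSC and miPS-NSC, against 0.25, 0.21 and 0.22 over all genes.

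Myelin and mature oligodendrocyte genes were the thinnest list, with 4 of 18 named and 3 tested. Cldn11, the claudin of myelin tight junctions, was at a log2 level of 8.19 ± 0.12 in pNSC and 7.47 ± 0.01 in fNSC and was below detection in miPS-NSC and MEF (SD, n = 2). It was lower in miPS-NSC than in pNSC by 2.62 ± 0.15, at least 3.99-fold (limma adjusted p = 1.7e-05), and than in fNSC at least 2.41-fold, the second of which was not called in the authors' values (-0.74 on the log2 scale). Car2 and Trf, a carbonic anhydrase and transferrin, were called higher in each NSC line than in MEF and in 0 of the 3 NSC comparisons. Against MEF 24.8% to 25.9% of all genes were called higher. The 3 Trf differences from MEF were under 2-fold in the authors' values (0.52, 0.58 and 0.74 on the log2 scale) and without background correction. The fourth named gene, Ugt8a, which makes a myelin lipid, was detected on 1 miPS-NSC array only. List medians were 0.25, -0.47 and -0.22 on the log2 scale in pNSC against fNSC, miPS-NSC against pNSC and miPS-NSC against fNSC. Other genes of this list, the major myelin proteins among them, have no named probe here and were not analysed.

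**Figure D3:**
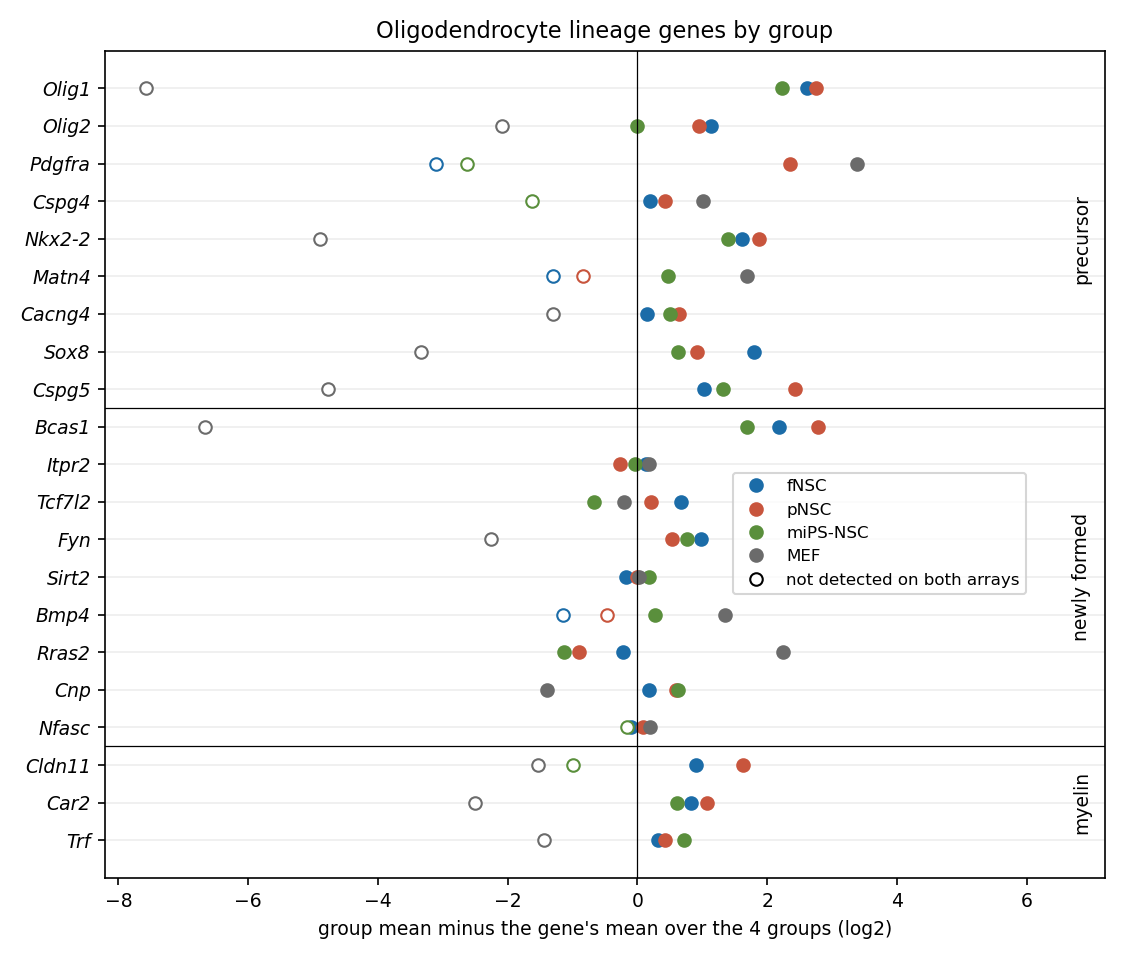
Group means of the 21 tested genes of the precursor, newly formed and myelin lists, each as its difference (log2) from the gene's own mean over the 4 groups; open points are groups not detected on both arrays. Olig1, Bcas1, Nkx2-2, Sox8 and Cspg5 sit far to the left in MEF only, Pdgfra is to the right in pNSC and MEF, and Cspg4 and Cldn11 fall to the left in miPS-NSC.

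Of 18 ligands, receptors and proximal signalling genes 12 were tested, and among the NSC lines the calls were Pdgfra alone, in pNSC against fNSC and in miPS-NSC against pNSC. Medians over the 12 were 0.20, -0.07 and 0.25 on the log2 scale, and 0.18, 0.09 and 0.11 without Pdgfra, in pNSC against fNSC, miPS-NSC against pNSC and miPS-NSC against fNSC. The ligand Pdgfa was at a log2 level of 10.16 ± 0.30 in fNSC, 10.50 ± 0.35 in pNSC and 10.27 ± 0.19 in miPS-NSC (SD, n = 2), with overlapping arrays. Against MEF 5, 4 and 5 genes were lower in fNSC, pNSC and miPS-NSC and 0 higher, by the brightest probes. The ligand Pdgfc was lower 4.10, 4.99 and 2.52-fold and the adaptor Shc1 3.33, 2.93 and 2.28-fold in these lines. Over all genes 17.2% to 17.6% were called lower and 24.8% to 25.9% higher than in MEF. Among the NSC lines 4.87% to 6.99% were called lower and 6.57% to 8.5% higher. Grb2, lower in miPS-NSC, lost its call in the authors' values, at -0.57 on the log2 scale. A further probe of Pik3r1 was called higher in fNSC than in MEF, by 1.30 on the log2 scale. The transcription factor Stat3 was lower in fNSC and pNSC by its brightest probe, but another of its probes was higher than in MEF in the same comparisons.

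Partners and brakes of the bHLH factors were tested for 14 of 18 genes, with Olig1 and Olig2 among them. Hes5, a Notch target that holds progenitors undifferentiated, was lower in pNSC than in fNSC by 1.44 ± 0.09 on the log2 scale, 2.72-fold (limma adjusted p = 2.39e-05). It was the call of that comparison, with 0 higher and 1 lower (median -0.11). In miPS-NSC it was lower still, 2.42-fold below pNSC and 6.58-fold below fNSC. Id1, an inhibitor that binds bHLH partners, was higher in miPS-NSC than in pNSC by 2.03 ± 0.09, 4.08-fold, and than in fNSC 2.65-fold. Counts were 1 higher and 1 lower in miPS-NSC against pNSC (median 0.05), and 1 higher and 3 lower in miPS-NSC against fNSC (median 0.17), where Id4 and Olig2 were lower beside Hes5. Among the NSC lines 6.57% to 8.5% of all genes were called higher and 4.87% to 6.99% lower. In the authors' values Hes5 in miPS-NSC against pNSC was at -0.95 and Id4 in miPS-NSC against fNSC at -0.41 on the log2 scale, neither a call.

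Against MEF the bHLH list had 6, 7 and 7 genes higher and 2, 4 and 2 lower in fNSC, pNSC and miPS-NSC. The shares over all genes were 24.8% to 25.9% higher and 17.2% to 17.6% lower. Of these calls, Id2 in pNSC and miPS-NSC, Id1 and Id3 in pNSC and Olig2 in miPS-NSC were lost in the authors' values and without background correction. The E proteins Tcf4 and Tcf12, which pair with Olig factors, were higher in each line, Tcf4 by 2.80, 3.69 and 3.94-fold. A further probe of Tcf12 differed from its brightest one and was called lower in pNSC than in fNSC and higher in miPS-NSC than in pNSC. Sox5 was higher 9.16, 11.3 and 16.9-fold, and Zeb2, a zinc finger factor, was lower 4.07, 3.19 and 3.19-fold. By another Sox5 probe the differences were smaller, at 1.42, 1.70 and 1.85 on the log2 scale, and still called. Id4 was lower by 12.7-fold in fNSC and at least 15.3 and 15.5-fold in pNSC and miPS-NSC.

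Of 10 Sonic hedgehog pathway genes, the pathway that induces Olig genes in the ventral neural tube, 2 were tested. Sufu, its inhibitor, was not detected in pNSC and MEF, and was higher in miPS-NSC than in pNSC by at least 1.77-fold and than in MEF by at least 1.73-fold. It was lower in pNSC than in fNSC by at least 1.16-fold. Smo, the signal transducer, was not called in any of the 6 comparisons by its brightest probe, while both of its other probes were called higher in fNSC (1.79 and 1.91 on the log2 scale) and pNSC (1.20 and 1.76) than in MEF, and 1 of them in miPS-NSC. Each of these Sufu differences was under 2-fold without background correction.

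The genes most alike in pattern were found by the root mean square distance of centred log2 signals over the 8 arrays. For Pdgfra these were Sulf1 at 0.45, Emp3 at 0.59 and Nudt7 at 0.69, against 2.9 for the Pdgfra profile's own spread about its mean. All 3 were detected in pNSC and MEF and not in fNSC or miPS-NSC. Sulf1, an enzyme that trims heparan sulfate, had log2 levels of 11.62 in MEF and 9.87 in pNSC, against 5.11 in fNSC and 5.45 in miPS-NSC. For Cspg4 the nearest were Pygl at 0.15, Smpdl3a at 0.19 and Parp12 at 0.21, against 0.99 for its own spread. Pygl and Parp12 were likewise below detection in miPS-NSC, while Smpdl3a was detected there at a lower level.

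Bcas1 was the gene nearest to Olig1, at 0.58, followed by Nup210 at 0.85 and Aldoc at 0.89, with 4.38 for the spread of Olig1 itself. For Bcas1 the nearest were Aldoc at 0.39, Fam181b at 0.51 and Olig1 at 0.58, with 3.87 for its own. Each of these was undetected in MEF and detected in the 3 NSC lines. Distances are a description of 8 arrays in 4 groups and carry no test.

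**Figure D4:**
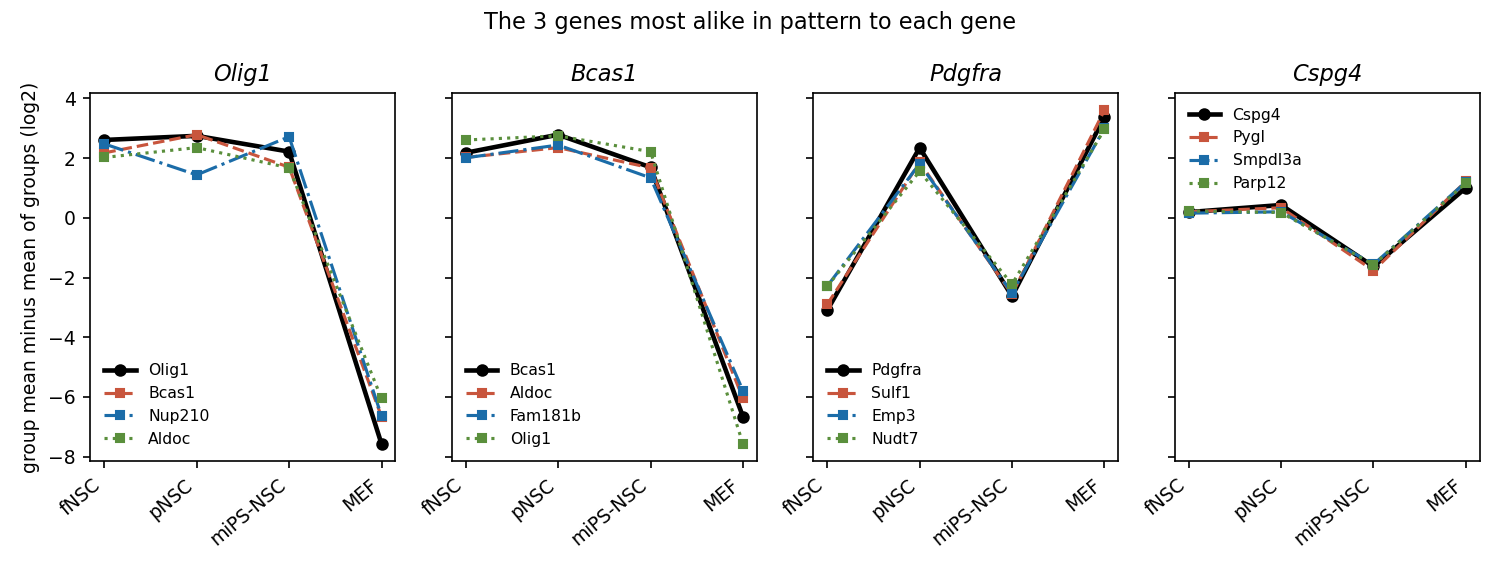
Group means, each gene centred on its mean over the 4 groups (log2, vertical axis), for Olig1, Bcas1, Pdgfra and Cspg4 (black) and the 3 genes with the smallest distance to each (colours). The Pdgfra panel shows the shared peaks in pNSC and MEF, and the Cspg4 panel the shared low point in miPS-NSC.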

How the data were processed

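Per the file headers, the deposited signal table holds the mean bead intensity of each probe, with a detection p-value, the standard error over beads as a signal and the number of beads. GenomeStudio 2009.2 is named in the submitters' processing notes. The log2 values that the authors deposited have equal quantiles on the 8 arrays and cover the 12421 probes whose detection p was below 0.05 on 4 or more arrays. No source used here gives their background step.

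Signals were corrected with neqc of limma 3.58.1 (R 4.3.3, offset 16, background inferred from the detection p-values). Of 12478 kept probes 10958 have a gene, named through the platform annotation of the authors' probes. The brightest kept probe stood for each of 8107 genes. All 8 arrays entered 1 linear model with moderated variances (lmFit, eBayes; residual degrees of freedom 4, prior 2.98). Two-sided p-values were adjusted by Benjamini-Hochberg over 8107 genes, and a call needed an adjusted p under 0.05 and a 2-fold change. A fold is written "at least" where the dimmer group was not detected on both arrays. It sets the brighter mean against, per array, the higher of the lowest signal of a detected probe and the probe's own value. The number of arrays limits the precision. The fit was tested on simulated data.

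The genes and lists were chosen with earlier results of these data known. Called genes of the 6 lineage lists could be named, and the 3 genes nearest in pattern to each of the 4. Summed levels of marker lists are on the linear scale of the normalized values. Schwann cell, neuron, microglia and endothelial markers were also summed. Alternatives were the authors' values, quantile normalization without background correction, an offset of 50, no detection filter or a detection p under 0.05, every kept probe, NSC groups alone, an intensity trend, a replicate block and leaving out each array. The title ending of the second arrays did not pair arrays across groups, with correlations of deviations from -0.00173 to 0.0709. No source used here gives the probe sequences or their build.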

Additional observations from a re-analysis of the deposited data

How the results depend on the processing

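Across the alternatives, 388 of the single-gene log2 differences kept their direction and their side of the threshold, 7 lost the call and 1 reversed. Pdgfra in miPS-NSC against fNSC reversed, ranging from -0.01377 to 0.9598 when single arrays were left out. Cspg4 lost its call under the authors' values and under quantile normalization without background correction, at -0.7073 and -0.7393 in miPS-NSC against pNSC and -0.6046 and -0.6403 in miPS-NSC against fNSC, so the count of called genes in miPS-NSC against fNSC was 0 under both. The first setting's background step is unknown and the second leaves the background in the signal. Where an array was left out, its lone partner is assumed to vary like the other groups. Pdgfra in pNSC against MEF lost its call at -0.9712 without background correction, and at -0.9218 without pNSC replicate 1 and -0.9804 without MEF replicate 2. Over all genes, quantile normalization without background correction called 441, 588 and 559 genes in pNSC against fNSC, miPS-NSC against pNSC and miPS-NSC against fNSC where the report's fit called 928, 1186 and 1144, and the authors' values called 446, 596 and 566. Against MEF the authors' values called 2138, 2177 and 2055 genes for fNSC, pNSC and miPS-NSC against 3492, 3522 and 3401, and testing every kept probe called 5752, 5766 and 5655. Of the list genes called among NSC groups, 4, 9 and 10 in the 3 comparisons, the authors' values kept 3, 5 and 4 with no change of sign. With the title ending as a replicate block 929, 1185 and 1143 genes were called, and no call of the 4 genes changed. In the report's fit the detection limit bounds every fold of a gene that a group lacked. Under another scaling a difference could be smaller than that bound.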
